A study of Homo sapiens with 4 samples.

Results

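The genes of the kinetochore, the spindle checkpoint and the exit from mitosis were examined in HepG2 cells, an established human liver cancer line that the labels call hepatoblastoma. The set was chosen by function, with earlier results of these data known, as 53 gene symbols in 11 roles. Of these, 51 were rows of the deposited table of 30863 genes, and all 51 passed the filter on low values. SGO1 and SGO2, which guard centromeric cohesion, were rows only under their older symbols SGOL1 and SGOL2. They are given apart and are not counted among the 51.

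The series holds 2 libraries of cells treated with AMF (amentoflavone, a plant biflavonoid) for 48 h and 2 libraries of cells given the solvent DMSO for 48 h. All 4 libraries are of wild-type cells of the 1 line. The sources disagree on the agent: the treatment protocol names 90 µM AMF, while the design text names 80 µM of Tub B, so compound and dose are uncertain and AMF is used here as the name of the group. The labels leave unsaid whether the replicates came from separate cultures. The p-values therefore rest on the scatter among 4 libraries, and that scatter may be technical.

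At mitosis, condensin and topoisomerase II compact the chromosomes, and each centromere assembles a kinetochore, the protein plate that binds spindle microtubules. Kinetochores without microtubules generate the spindle checkpoint signal, which holds back CDC20, the activator of the anaphase-promoting complex. Once CDC20 is free, the complex marks securin for destruction, separase opens the cohesin rings that hold sister chromatids together, and the cell leaves mitosis and divides. Most of these genes are transcribed in late S phase, G2 and mitosis, under the DREAM repressor complex and the activators MYBL2 and FOXM1.

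Each library held 24226586 to 26966210 reads counted in genes. Values are normalized counts, that is reads divided by a size factor for the library (0.971 to 1.08), and 1 read is worth 0.929 to 1.03 of them. A change is the log2 fold change of AMF over DMSO on log2(normalized count + 1) with its standard error (SE), and p-values are from limma, adjusted over the 23828 genes tested. All 10 hepatocyte markers were present, with a mean of at least 633 and summed levels of 388994 and 369242 in AMF and 516821 and 499109 in DMSO. Of the 6 fibroblast markers, 4 had a mean below 10, and the list summed to 36.2 and 25.8 in AMF and to 211 and 195 in DMSO. The 5 leukocyte markers found summed to 18524 and 17596 in AMF and to 25454 and 24813 in DMSO, nearly all of it lysozyme (LYZ), while CD3E and ITGAM had a mean below 10. The 4 endothelial markers summed to 296 and 280.2 in AMF and to 151 and 187 in DMSO, and 3 of them had a mean below 10. Mitochondrial genes took 9.53% and 9.61% of the reads in AMF and 7.73% and 7.69% in DMSO, and 25985 and 25632 genes had reads in AMF, against 23929 and 24108 in DMSO, so both measures separated the groups. The part of these differences in the mitotic results was not tested.

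Most of the mitotic genes were lower in AMF, each by a modest amount. Of the 51 genes, 38 fell at an adjusted p under 0.05, 0 rose and 13 did not pass. No gene of the set was higher at an unadjusted p under 0.05 either (0 genes), and voom called 0 higher. Over all genes tested, 16.2% were called lower and 15.6% higher. Called in either direction were 31.8% of them. The mitotic genes are mostly well expressed, 49 of them averaging 200 normalized counts or more, and among all genes at that level 32.6% were called lower and 23.9% higher. The share of the mitotic genes called lower was 74.5%. Their median log2 change was -0.38, against 0.04 over all genes tested and -0.04 over genes averaging 200 or more, and the changes ran from -0.88 to 0.14. None (0) fell by 1 or more on the log2 scale. In bulk RNA, fewer cells in G2 and mitosis and less of these transcripts per cell cannot be told apart.

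The reads of the 51 genes together came to 3843 and 3786 CPM (reads scaled to a common library total) in AMF and to 5165 and 4913 CPM in DMSO, so the groups did not overlap. Both AMF libraries lay below both DMSO libraries for 40 genes, against 29.7% of all genes tested, and above them for 3 (BUB3, CENPH and PTTG1), against 33.8%. Both shares are over genes of all levels, many of them less expressed than the mitotic genes. Replicates of DMSO differed more than those of AMF: DMSO replicate 1 was above replicate 2 for 42 of the 51 genes, by a median of 0.09 on the log2 scale, while over all genes tested that median gap was 0.00. Between AMF replicates 1 and 2 the median gap was 0.02. Set against DMSO replicate 1 alone, the median change was -0.47, and against DMSO replicate 2 alone it was -0.37. The gap between the DMSO libraries was smaller than the change in each of the 38 fallen genes, though in AURKB only by less than the 2 decimals printed.

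The calls depended on how many libraries were fitted. With limma, fewer of the 51 genes, and fewer of all genes, were called without DMSO replicate 1 or 2. The median changes of the 51 genes were then -0.37 and -0.47. Without AMF replicate 1 or 2 limma called none of all 23828 genes, and these medians were -0.47 and -0.36. The prior degrees of freedom dropped to 0.995 and 1, against 11.9 with all libraries. Voom on the recovered reads called far fewer of the 51 genes, and of all genes, without AMF replicate 1 or 2. It called somewhat fewer of both without DMSO replicate 1 or 2. The lone sample of a group is then assumed to vary like the other group. In voom the prior degrees of freedom were 2.02 and 2.03 without AMF replicates 1 and 2. They were infinite without either DMSO library, so each gene's own scatter was then set aside. The voom calls without a DMSO library are therefore a weak check, also where they are part of calls kept without each library in turn. In every one of these 8 fits all 38 fallen genes had a change below 0. That outcome was fixed in advance, since both AMF libraries lay below both DMSO libraries in each of the 38. The fold of 0 of the 51 genes moved by over 1.5 times in these fits. In voom without an AMF library, the kept calls lay just under the threshold and several lost calls just over it. Calls kept or lost, here and in the roles below, therefore do not separate firm changes from weak ones. The 13 genes that voom called without each library in turn were PLK1, CENPA, CENPU, CENPE, CENPF, ESPL1, TPX2, ASPM, ECT2, TOP2A, NCAPD2, NCAPG and MYBL2.

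**Figure D1:**
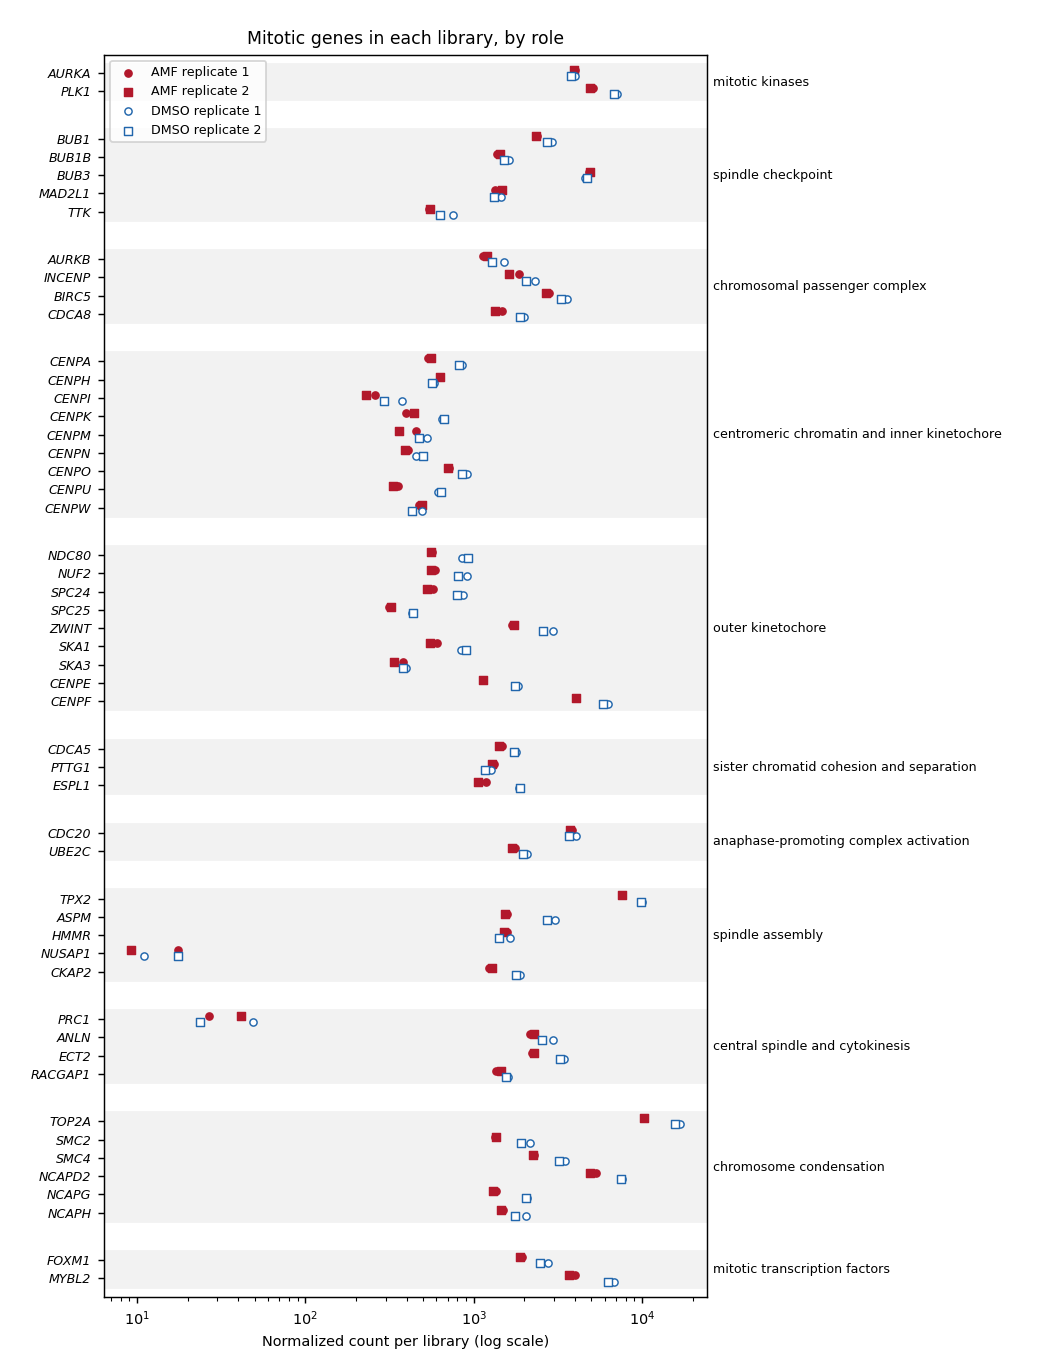
Normalized counts (x axis, log scale) of the 51 mitotic genes (rows, grouped by role), with 1 point per library: AMF filled red, DMSO open blue, circles replicate 1 and squares replicate 2. For most genes both red points lie left of both blue points; NUSAP1 and PRC1 lie far to the left, below 50 normalized counts in every library.

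**Figure D2:**
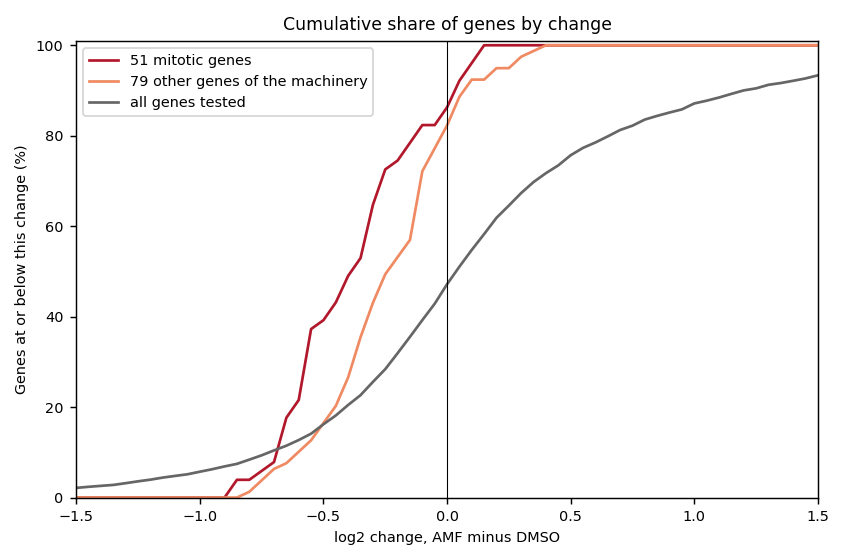
Share of genes (y axis, %) with a log2 change of AMF minus DMSO at or below the value on the x axis, for the 51 mitotic genes, 79 other genes of the same machinery and all 23828 genes tested. Of the mitotic genes 44 lie below 0, and none passes 0.14, whereas the curve of all genes crosses 0 at 47.2%.

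The 3 largest falls among the genes were those of ASPM, CENPU and MYBL2, and the smallest change with a promoter sequence at hand was that of HMMR. ASPM, a spindle pole protein that organises microtubule minus ends, had 1586 and 1526 normalized counts in AMF, against 3028 and 2723 in DMSO (log2 change -0.88, SE 0.0607, adjusted p = 5.58e-08). CENPU, an inner kinetochore protein that recruits PLK1, had 357 and 329.6 in AMF, against 617 and 642 in DMSO (-0.87, SE 0.0886, adjusted p = 2.94e-06). MYBL2, the transcription factor B-MYB, had 3968 and 3682 in AMF, against 6802 and 6262 in DMSO (-0.77, SE 0.0528, adjusted p = 5.43e-08). In these 3 genes the AMF and DMSO libraries were well apart. HMMR, a microtubule-binding protein of the spindle, had 1571 and 1517 in AMF, within the 1645 and 1413 of DMSO (0.02, SE 0.0712, adjusted p = 0.879).

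The promoters of these 4 genes are shown because cell cycle promoters of this class carry the cell cycle genes homology region (CHR), where the DREAM complex and the MYBL2 and FOXM1 activators bind, next to CCAAT boxes bound by NF-Y. The sequences are from RefSeq on GRCh38.p14, each from 250 bases before to 50 bases after the annotated gene start, 5′ to 3′ on the gene's strand. ASPM lies at chr1:197146620-197146919 on the minus strand, CENPU at chr4:184734047-184734346 on the minus strand, MYBL2 at chr20:43666864-43667163 on the plus strand and HMMR at chr5:163460382-163460681 on the plus strand. Capitals mark CHR letters (TTTGAA or TTCGAA) and CCAAT boxes (CCAAT), read on either strand.
ASPM: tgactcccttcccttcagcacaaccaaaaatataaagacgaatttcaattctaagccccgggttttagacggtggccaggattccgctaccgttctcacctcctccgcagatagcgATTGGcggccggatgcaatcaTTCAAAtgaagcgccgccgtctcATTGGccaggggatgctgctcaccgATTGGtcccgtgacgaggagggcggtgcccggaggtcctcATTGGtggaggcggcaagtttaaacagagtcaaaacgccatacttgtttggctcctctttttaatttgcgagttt
CENPU: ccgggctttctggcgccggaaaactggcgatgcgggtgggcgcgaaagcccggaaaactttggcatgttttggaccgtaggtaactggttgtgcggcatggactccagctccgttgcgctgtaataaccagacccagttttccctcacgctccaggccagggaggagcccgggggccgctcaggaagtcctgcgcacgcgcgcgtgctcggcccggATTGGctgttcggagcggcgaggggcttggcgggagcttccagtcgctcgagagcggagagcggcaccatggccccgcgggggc
MYBL2: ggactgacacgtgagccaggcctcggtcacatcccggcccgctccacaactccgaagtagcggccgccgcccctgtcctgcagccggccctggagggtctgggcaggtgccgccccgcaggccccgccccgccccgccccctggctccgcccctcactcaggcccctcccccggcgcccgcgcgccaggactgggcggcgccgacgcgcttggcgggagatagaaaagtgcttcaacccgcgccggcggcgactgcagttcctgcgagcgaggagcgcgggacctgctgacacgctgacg
HMMR: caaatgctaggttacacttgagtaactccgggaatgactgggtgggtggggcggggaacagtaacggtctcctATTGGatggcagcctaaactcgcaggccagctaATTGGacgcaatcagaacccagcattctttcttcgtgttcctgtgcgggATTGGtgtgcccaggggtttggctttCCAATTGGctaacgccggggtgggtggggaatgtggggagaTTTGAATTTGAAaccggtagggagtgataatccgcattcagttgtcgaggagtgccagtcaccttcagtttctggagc
The window of ASPM holds 1 CHR match, which starts 113 bases before the gene start, and 4 CCAAT boxes. That of CENPU holds a CCAAT box and no CHR letters, and that of MYBL2 holds neither of these exact letter runs. The window of HMMR holds 2 CHR matches in a row, starting 28 and 22 bases before the gene start, and 5 CCAAT boxes, of which 2 overlap on opposite strands. HMMR held more of these matches than any of the 3 genes with the largest falls. The 4 genes were picked by their changes, and whether motifs and changes are linked was not tested.

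Promoter windows were found for 41 of the 51 genes; AURKA, BIRC5, BUB3, CENPH, CENPM, FOXM1, RACGAP1, TPX2, TTK and UBE2C were not matched. CHR letters occurred in 31 of the 41 (75.6%), against 11.7% of the promoters of 12015 tested genes and 16.6% of all 27305 promoters in the table. Of the 38 CHR matches, 31 started within 100 bases before to 50 after the gene start. CCAAT boxes occurred in 26 of the 41 (63.4%), against 36.4% of tested and 35.7% of all promoters, and both motifs in 20 (48.8%), against 4.97% and 6.58%. The E2F letters TTCCCGC or TTCGCGC or TTGCCGC or TTGGCGC occurred in 14 (34.1%), against 18.9% and 13.1%. The core of the xenobiotic response element bound by the aryl hydrocarbon receptor, GCGTG, occurred in 21 (51.2%), against 47.9% and 36.3%. All motifs were read on both strands, and matches of different motifs may overlap. Only these exact letters were searched, so a promoter without a match may still hold a variant of the site. Mitotic genes fell both with and without CHR letters: 23 of the 31 with them fell (median log2 change -0.45) and 9 of the 10 without them fell (median -0.57). The 31 include NUSAP1 and PRC1, which were not called and whose low counts do not say how they changed. Across the tested genes, 25.5% of 1409 with CHR letters were called lower and 16.3% higher, against 23.1% and 20.6% of the 10606 without them.

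**Figure D3:**
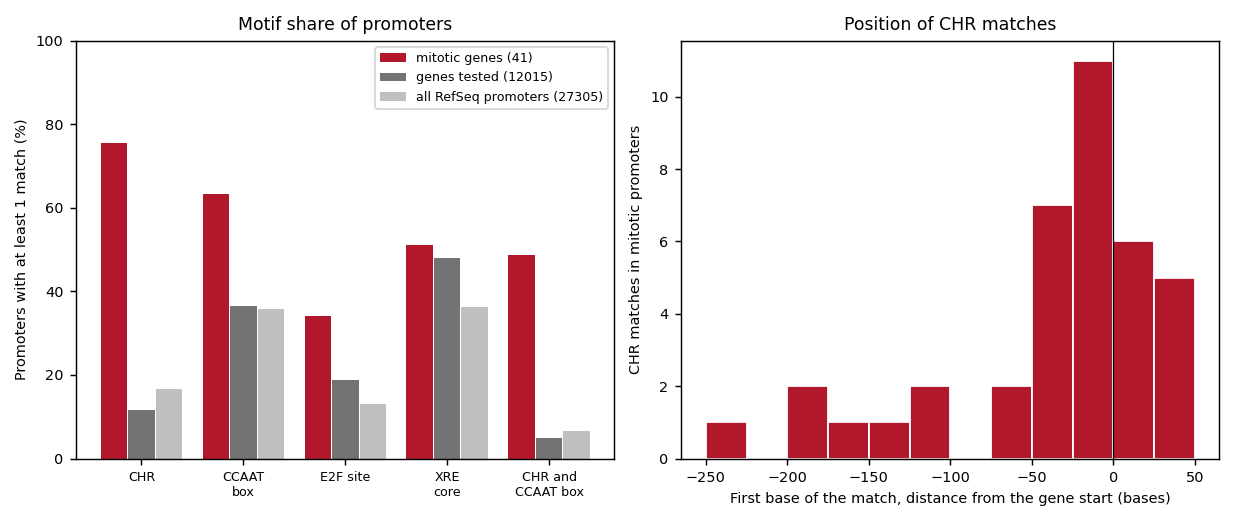
Left: share of promoters (%, bars from 0) with at least 1 match to each motif, for 41 mitotic genes, 12015 tested genes and all 27305 RefSeq promoters; XRE is the xenobiotic response element. Right: number of CHR matches in the mitotic promoters by the distance of the first base from the gene start, in bins of 25 bases; most lie near the start.

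Among the mitotic kinases, PLK1 fell and AURKA did not pass. PLK1, which drives centrosome maturation and kinetochore assembly, had 5079 and 4876 in AMF, against 7071 and 6792 in DMSO (-0.48, SE 0.0447, adjusted p = 1.29e-06). AURKA, the kinase of the spindle poles, had 3983 and 3936 in AMF, against 4019 and 3762 in DMSO (0.03, SE 0.0488, adjusted p = 0.741). The AURKA values of AMF lay between those of DMSO. Its activator TPX2, a spindle assembly factor, fell, with 7611 and 7645 in AMF against 9937 and 9881 in DMSO (-0.38, SE 0.0392, adjusted p = 3.67e-06). In a pair chosen after its values were seen, as were the other gene pairs below, the ratio of AURKA to TPX2 counts was 0.523 and 0.515 in AMF and 0.404 and 0.381 in DMSO, so the balance of the transcripts of kinase and activator differed between the groups without overlap.

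The spindle checkpoint was among the least changed roles, with a median change of -0.16 over 5 genes, of which 2 fell and 3 did not pass. TTK, the kinase MPS1 that starts checkpoint signalling, had 540.4 and 549 in AMF, against 755 and 633 in DMSO (-0.34, SE 0.0904, adjusted p = 0.00878). BUB1, a kinase that docks checkpoint proteins at the kinetochore, had 2377 and 2338 in AMF, against 2905 and 2719.6 in DMSO (-0.25, SE 0.0531, adjusted p = 0.00182). Both falls were small beside those of the outer kinetochore. BUB1B, which encodes BUBR1 of the mitotic checkpoint complex, had 1382 and 1425 in AMF, against 1618 and 1520.5 in DMSO (-0.16, SE 0.0605, adjusted p = 0.0574). Its AMF libraries lay below its DMSO libraries, and voom called it lower (adjusted p = 0.043), as did limma on genes averaging 10 or more (adjusted p = 0.034); over the alternatives with all libraries the adjusted p ran to 0.142, with quantile normalization. MAD2L1, the protein MAD2 that binds CDC20, had 1346 and 1464 in AMF and 1457 and 1316 in DMSO (0.02, SE 0.0687, adjusted p = 0.864). BUB3, the partner of BUB1 and BUBR1, had 4849.9 and 4882 in AMF and 4589 and 4698 in DMSO (0.07, SE 0.044, adjusted p = 0.279). The MAD2L1 groups overlapped, while both AMF values of BUB3 were above both DMSO values by less than the test could call. The ratio of BUB3 to BUB1 was 2.04 and 2.09 in AMF and 1.58 and 1.73 in DMSO. The calls of TTK and BUB1 ended with voom without either AMF library, and that of TTK also without DMSO replicate 1. With all libraries the TTK call ended with quantile normalization (adjusted p = 0.0883), the highest of those alternatives.

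All 4 genes of the chromosomal passenger complex, which corrects faulty kinetochore attachments, fell, with a median change of -0.32. The kinase AURKB had 1137 and 1191 in AMF, against 1511 and 1275 in DMSO (-0.25, SE 0.077, adjusted p = 0.0201). Its call ended with a pseudocount of 0.1 (adjusted p = 0.0591), without the filter (0.0655) and with quantile normalization (0.136). Over the alternatives with all libraries the adjusted p ran from 0.001 to 0.136. The lowest of these came from the replicate block, a weak check. DMSO replicate 1 stood above replicate 2 by 0.25 in AURKB, equal to the size of its change when both are given to 2 decimals. The borealin gene CDCA8 had 1474 and 1339 in AMF, against 1976 and 1875 in DMSO (-0.45, SE 0.0633, adjusted p = 5.86e-05). The scaffold INCENP (-0.32, SE 0.0739, adjusted p = 0.00381) and BIRC5, which encodes survivin (-0.33, SE 0.0537, adjusted p = 0.000237), lay between them. The INCENP call ended with quantile normalization (adjusted p = 0.102), the highest of the alternatives with all libraries. The 4 subunits thus moved the same way within a narrow range, although none of their 4 calls held in voom without either AMF library, nor that of AURKB without DMSO replicate 1.

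The inner kinetochore and centromeric chromatin were the most uneven role: of 9 genes 6 fell and 3 did not pass, with changes from -0.87 to 0.14 and a median of -0.31. CENPA, the histone H3 variant that marks centromeres, had 532 and 561 in AMF, against 846 and 823 in DMSO (-0.61, SE 0.0757, adjusted p = 1.98e-05). CENPK had 395 and 441 in AMF, against 644 and 667 in DMSO (-0.65, SE 0.0873, adjusted p = 4.09e-05). CENPH, which binds CENPK in the same subcomplex, had 631 in both AMF libraries, against 579.8 and 564 in DMSO (0.14, SE 0.0775, adjusted p = 0.188). The ratio of CENPH to CENPK was therefore 1.6 and 1.43 in AMF and 0.901 and 0.845 in DMSO. Of the other partners in that subcomplex, CENPI fell (-0.45, SE 0.129, adjusted p = 0.0156; 0.114 and not past the threshold with quantile normalization, the highest of the alternatives with all libraries) and CENPM narrowly did not pass (-0.30, SE 0.111, adjusted p = 0.0505); with voom the CENPM p was 0.027 and with quantile normalization 0.235. CENPO, a partner of CENPU, fell by less than CENPU did (-0.31, SE 0.0721, adjusted p = 0.00385). CENPN, which reads CENPA nucleosomes, was just past the threshold (-0.25, SE 0.0914, adjusted p = 0.0473) and not past it with a pseudocount of 0.1 (0.0607), without the filter (0.0698), with library totals (0.0707) or with quantile normalization (0.127). CENPW, a histone-fold protein, had 476 and 496 in AMF and 496 and 430.2 in DMSO (0.07, SE 0.0935, adjusted p = 0.611), and its groups overlapped. CENPA and CENPU were called in voom without each library in turn, whereas CENPI, CENPN and CENPO lost their calls without either AMF library and CENPK without AMF replicate 1. CENPI lost it also without DMSO replicate 1 and CENPN without DMSO replicate 2.

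In the outer kinetochore, which holds the microtubules, 8 of 9 genes fell, with changes from -0.68 to -0.12 and a median of -0.59. All 4 subunits of the NDC80 complex, the main microtubule coupler, fell. NDC80 had 566 and 558 in AMF, against 856 and 924 in DMSO (-0.66, SE 0.0758, adjusted p = 9.39e-06). NUF2 fell by 0.58 and SPC24 by 0.59 on the log2 scale, and SPC25, the smallest change of the 4, had 312 and 321 in AMF against 431 and 433 in DMSO (-0.45, SE 0.0937, adjusted p = 0.00183). Per kilobase of exon, the mean levels of NDC80, NUF2, SPC24 and SPC25 were 156, 171, 194 and 172 in AMF, and 247, 255, 292 and 235 in DMSO. The lengths join all annotated exons of a gene, not those of the transcript expressed, so whether the 4 transcripts had equal levels was not tested. ZWINT, which tethers the checkpoint to the outer kinetochore, had the largest fall of this role, with 1695 and 1745 in AMF against 2965 and 2561 in DMSO (-0.68, SE 0.066, adjusted p = 1.86e-06). The kinesin CENPE (-0.66, SE 0.0593, adjusted p = 8.8e-07) and the fibrous corona protein CENPF, with 4068 and 4066 in AMF against 6249.7 and 5867 in DMSO (-0.57, SE 0.0465, adjusted p = 2.97e-07), fell alike. In the SKA complex, which trails depolymerising microtubules, SKA1 fell (-0.59, SE 0.0791, adjusted p = 3.9e-05). SKA3 had 379.8 and 335 in AMF and 398 and 378 in DMSO (-0.12, SE 0.1, adjusted p = 0.411), with overlapping groups. CENPE and CENPF were called in voom without each library in turn; the other 6 calls ended without either AMF library.

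**Figure D4:**
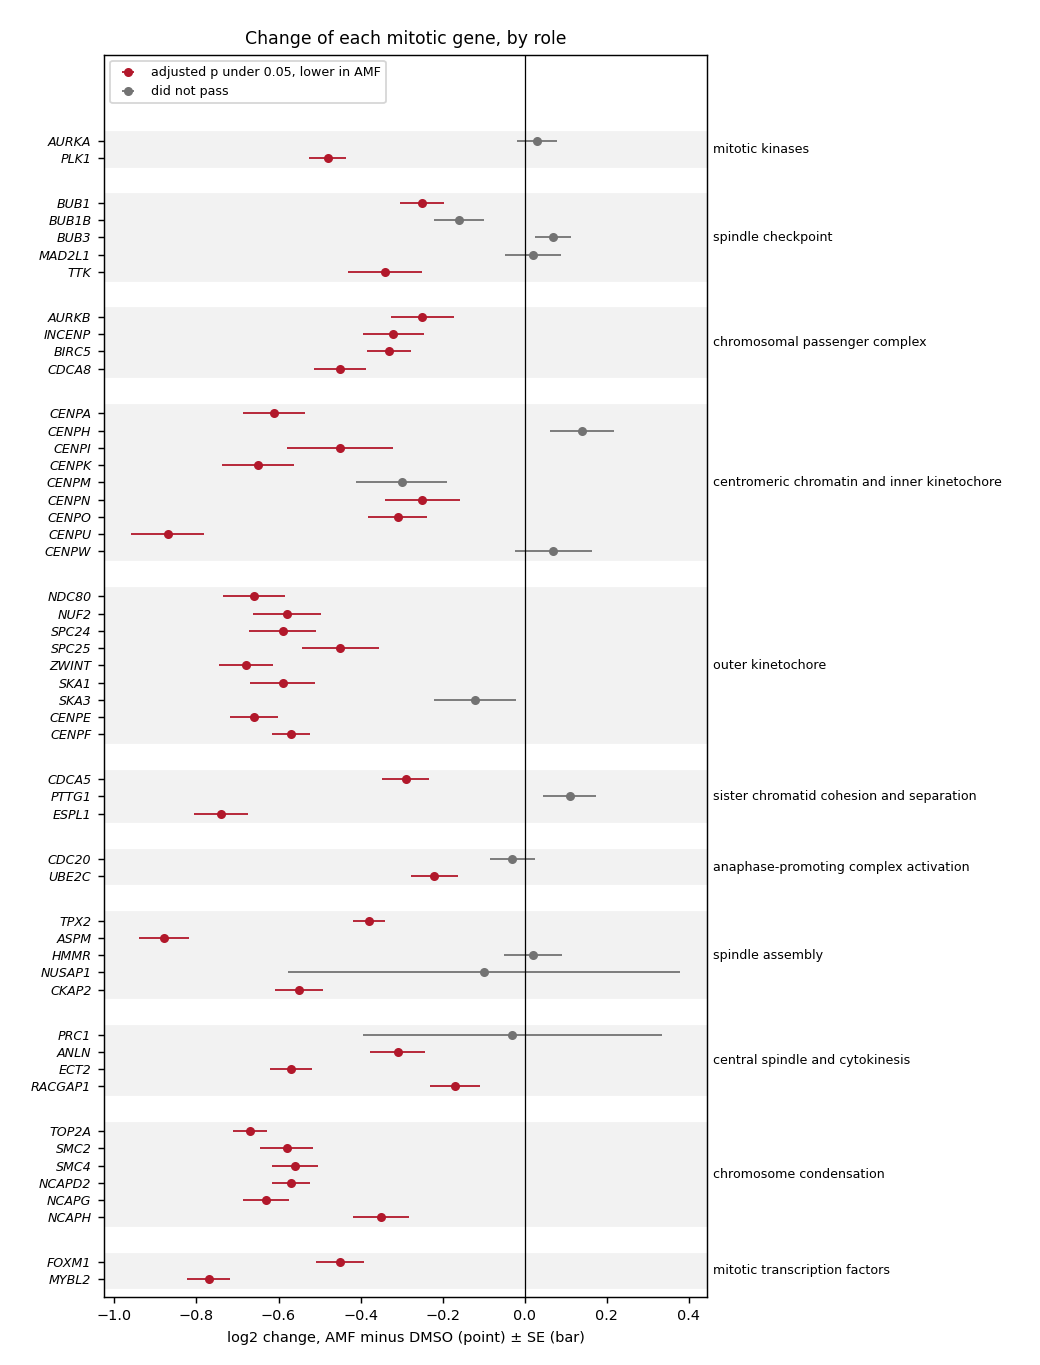
log2 change of AMF minus DMSO (point) with its standard error (bar) for the 51 mitotic genes by role; red genes fell at an adjusted p under 0.05 and grey genes did not pass. The outer kinetochore and chromosome condensation genes cluster near -0.6, while the checkpoint genes and those of the anaphase-promoting complex lie nearer 0; the long bars of NUSAP1 and PRC1 come with low counts.

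Separase and securin parted. ESPL1, the protease separase that cleaves cohesin, had 1187 and 1059 in AMF, against 1849 and 1886 in DMSO (-0.74, SE 0.0659, adjusted p = 8.31e-07). PTTG1, the securin that inhibits it, had 1325 and 1286 in AMF, against 1264 and 1165 in DMSO (0.11, SE 0.0647, adjusted p = 0.249). Both AMF values of PTTG1 were above both DMSO values, by less than the test could call. There were 1.12 and 1.21 PTTG1 counts per ESPL1 count in AMF and 0.683 and 0.618 in DMSO. CDCA5, the sororin that stabilises cohesion, had 1468 and 1415 in AMF, against 1772 and 1744 in DMSO (-0.29, SE 0.0574, adjusted p = 0.0013). Under its older symbol SGO1, the shugoshin of mitosis, had 209 and 221 in AMF, against 349.9 and 312 in DMSO (-0.62, SE 0.113, adjusted p = 0.000631), and SGO2 had 701 and 761 in AMF, against 908 and 829.5 in DMSO (-0.25, SE 0.0774, adjusted p = 0.0238). Exons of SGO1 overlap those of the antisense gene SGO1-AS1 over 17.7% of their length, and reads of the 2 cannot be told apart without strand. ESPL1 was called in voom without each library in turn, and CDCA5 was not.

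Of the genes that switch on the anaphase-promoting complex, CDC20 had 3848 and 3726 in AMF and 4071 and 3665 in DMSO (-0.03, SE 0.0545, adjusted p = 0.742), with overlapping groups. Quantile normalization put its change at 0.00. UBE2C, the ubiquitin-conjugating enzyme of the complex, had 1758 and 1688 in AMF, against 2061 and 1963 in DMSO (-0.22, SE 0.0567, adjusted p = 0.00695), a call lost in voom without either AMF library. The ratio of CDC20 to BUB1B, activator to inhibitor, was 2.78 and 2.62 in AMF and 2.52 and 2.41 in DMSO. The gap between the groups in this ratio was small, 0.13 on the log2 scale.

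**Figure D5:**
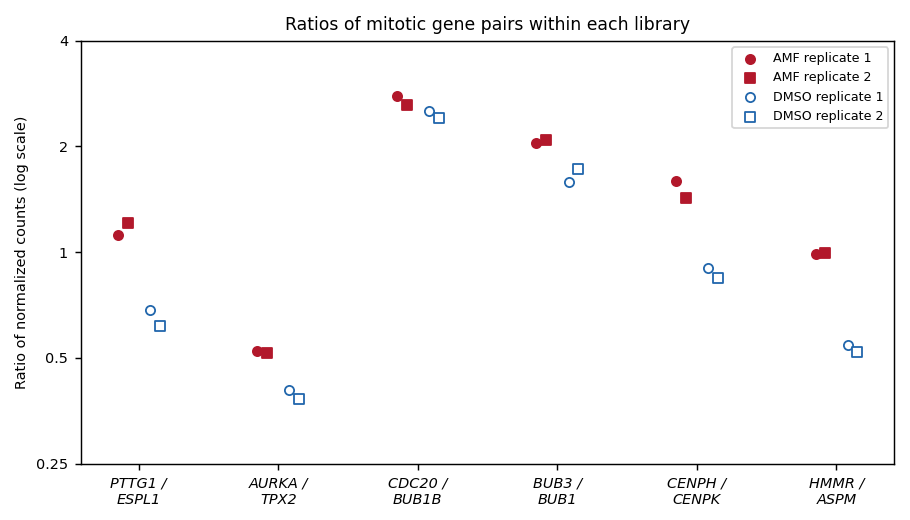
Ratio of normalized counts (y axis, log scale) of 6 gene pairs in each library, AMF filled red and DMSO open blue, circles replicate 1 and squares replicate 2. The ratios of PTTG1 to ESPL1, CENPH to CENPK and HMMR to ASPM differ most between the groups; counts are not divided by gene length, so only the same pair may be compared across libraries.

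Among the other spindle assembly genes, CKAP2, a microtubule stabiliser, fell, with 1238 and 1279 in AMF against 1883 and 1793 in DMSO (-0.55, SE 0.0593, adjusted p = 5.64e-06); its call ended in voom without AMF replicate 1. HMMR and ASPM, both at the spindle pole, stood in a ratio of 0.991 and 0.995 in AMF and 0.543 and 0.519 in DMSO. The row of NUSAP1, a microtubule bundler, held 17.6 and 9.27 normalized counts in AMF and 11.0 and 17.5 in DMSO (-0.10, SE 0.478, adjusted p = 0.898). The row of PRC1, the bundler of the central spindle, held 26.9 and 41.2 in AMF and 49.0 and 23.6 in DMSO (-0.03, SE 0.365, adjusted p = 0.965). These levels were far below all other genes of the set, the next lowest of which had a mean of 289. In GENCODE 29, exons of other genes cover 62.2% of the exon length of NUSAP1 (AC087721.2) and 58.4% of that of PRC1 (AC068831.7 and PRC1-AS1), more than for any of the other 49 genes (at most 33.1%, NCAPG). Whether reads in shared exons were left uncounted was not tested, and neither row says how the gene changed. Without NUSAP1 and PRC1, an alternative chosen after their values were seen, 38 of 49 genes fell and the median change was -0.45.

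In cytokinesis, ECT2, the exchange factor that activates RhoA at the division plane, had 2217 and 2292 in AMF, against 3436 and 3265 in DMSO (-0.57, SE 0.0517, adjusted p = 9.28e-07). ANLN, the anillin of the contractile ring, fell less (-0.31, SE 0.0672, adjusted p = 0.00212), and its call ended with quantile normalization (adjusted p = 0.0672), the highest of the alternatives with all libraries. RACGAP1, the partner of ECT2 in the central spindle, had 1362 and 1442 in AMF, against 1607 and 1545 in DMSO (-0.17, SE 0.0605, adjusted p = 0.0461). The RACGAP1 call was marginal and ended with a pseudocount of 0.1 (0.0624), without the filter (0.0738), with library totals (0.0786) and with quantile normalization (0.13). In voom without each library in turn ECT2 kept its call, and ANLN and RACGAP1 lost theirs without either AMF library, RACGAP1 also without DMSO replicate 1.

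All 6 genes of chromosome condensation fell, with a median of -0.58. TOP2A, the topoisomerase that untangles sister chromatids, was the most abundant transcript of the set by count, with 10202 and 10190.3 in AMF against 16732 and 15628 in DMSO (-0.67, SE 0.0415, adjusted p = 2.11e-08). The condensin I subunit NCAPD2 had 5309 and 4896 in AMF, against 7631 and 7526 in DMSO (-0.57, SE 0.0471, adjusted p = 3.53e-07), and NCAPG fell by 0.63 and NCAPH by 0.35 on the log2 scale. The ATPase subunits of condensin, SMC2 (-0.58, SE 0.0645, adjusted p = 6.43e-06) and SMC4 (-0.56, SE 0.055, adjusted p = 2.04e-06), fell by nearly the same amount. NCAPH had 1502 and 1461 in AMF, against 2033 and 1756 in DMSO, and its 2 DMSO libraries differed by 0.21 on the log2 scale. TOP2A, NCAPD2 and NCAPG were called in voom without each library in turn, and SMC2, SMC4 and NCAPH were not called without either AMF library.

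Both transcription factors of the set fell. FOXM1, which with MYBL2 activates G2 and mitosis genes, had 1942 and 1890.3 in AMF, against 2743 and 2488 in DMSO (-0.45, SE 0.0585, adjusted p = 3.23e-05). MYBL2 fell by more, as given above with its promoter, and kept its call in voom without each library in turn, whereas FOXM1 lost its call without either AMF library. Of the 11 other DREAM and MuvB complex genes, 6 fell, 0 rose and 5 did not pass, against 32.6% called lower and 23.9% higher among all genes averaging 200 or more. The largest fall was that of the p107 gene RBL1, with 803 and 757 in AMF against 1291 and 1283 in DMSO (-0.72, SE 0.0667, adjusted p = 1.13e-06), whereas its relative RBL2 had 1891 and 1857 in AMF and 1769 and 1817 in DMSO (0.06, SE 0.0549, adjusted p = 0.43).

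Of the rest of the machinery, 79 genes chosen by function, 40 fell, 4 rose and 35 did not pass, with a median change of -0.25. This choice too was made with earlier results of these data known. Over all genes tested 16.2% were called lower and 15.6% higher, and among those averaging 200 or more 32.6% and 23.9%. In each of the lists in which limma called 0 genes higher, 0 were higher at an unadjusted p under 0.05 and voom also called 0 higher. Cohesin and its regulators were lower in 10 of 13 genes and higher in 0, with a median of -0.37. The largest of these falls was that of STAG1, a cohesin subunit, with 586 and 639 in AMF against 1056 and 1047 in DMSO (-0.78, SE 0.0735, adjusted p = 1.39e-06). The ring subunits SMC1A (-0.35), SMC3 (-0.43) and RAD21 (-0.45) fell together. All 4 genes of condensin II and the chromosome periphery fell, led by the proliferation marker MKI67, with 8707 and 8738 in AMF against 13792 and 12335 in DMSO (-0.58, SE 0.0487, adjusted p = 4.3e-07).

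Among all genes averaging 200 or more, 32.6% were called lower and 23.9% higher. Of the 17 subunits and regulators of the anaphase-promoting complex, 2 fell, 2 rose and 13 did not pass, with a median of -0.09. Its inhibitor FBXO5 (EMI1) had the largest fall, with a mean of 554 ± 2.86 in AMF against 957 ± 61.0 in DMSO (SD, n = 2 each; -0.79, SE 0.0761, adjusted p = 1.84e-06), and the small subunit CDC26 the largest rise, with 217 and 204 in AMF against 161 and 162 in DMSO (0.38, SE 0.128, adjusted p = 0.0352). Of 21 further kinetochore and centromere genes, 12 fell, 0 rose and 9 did not pass, with a median of -0.33. OIP5, which helps to load CENPA, fell most (-0.82, SE 0.189, adjusted p = 0.00352) at low counts of 74.3 and 82.4 in AMF and 163 and 119 in DMSO. Of 5 further checkpoint genes 3 fell and 0 rose, led by the nuclear pore protein TPR, an anchor of MAD1 (-0.41, SE 0.0432, adjusted p = 4.06e-06). The row of the MAD1 gene itself, MAD1L1, held only 4.64 and 17.5 in AMF and 6.0 and 20.5 in DMSO, too few to say how it changed. Among 8 genes of the phosphatase pathway of mitotic exit, 3 fell and 2 rose, counts near the shares of all genes averaging 200 or more. CDC14A was lowest, with 121 and 126 in AMF against 151 and 216 in DMSO (-0.55, SE 0.171, adjusted p = 0.024). Its 2 DMSO libraries stood well apart. PPP2R2A, a PP2A regulatory subunit, was highest, with 1178 and 1229 in AMF against 982 and 993 in DMSO (0.29, SE 0.0641, adjusted p = 0.00303).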

How the data were processed

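Per the labels' protocols, poly(A) RNA of HepG2 cells went into 4 libraries without strand information. The submitters' processing notes list STAR 2.7.0, featureCounts and the build hg19. Which annotation and normalization were used is not given in the sources used here. Gene values as deposited are on a log2 scale with a common lowest value of 6.01, in the form of a variance-stabilizing transformation, which was read from the values. The unit was log2, one of those foreseen in the design, so no count model was the main test. The transformation was undone, and 100% of the results were whole reads within 0.01 reads; 0 columns of other samples were present. limma 3.58.1 (limma-trend, R 4.3.3) was fitted to log2(normalized count + 1) of 23828 genes with a mean of at least 1, with Benjamini-Hochberg adjustment, two-sided. Such changes understate those of low counts. On simulated counts of 23017 genes it recovered 28% of 1.25-fold, 76% of 1.5-fold, 88% of 2-fold and 98% of 4-fold changes, with 1 false call. The simulation changed 50 genes at each fold and gave all genes the same dispersion. In the data 7578 genes were called, which makes the adjusted threshold more lenient, so these figures do not carry over to the data.

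The members, role groups and lists were chosen with earlier results of these data known. Genes named with values were the largest and smallest change of each role, a fixed list of central genes and, per further list, the largest fall and rise past the threshold. Alternatives were other pseudocounts, filters, scalings, thresholds, voom, a replicate block and each library left out. Exon lengths and overlaps came from GENCODE 29 and promoters from RefSeq on GRCh38.p14, not the authors' build. Figures used matplotlib 3.10.9 in Python 3.11.15.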

Additional observations from a re-analysis of the deposited data

How the results depend on the processing

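Over all genes, 7578 were called, 3718 higher and 3860 lower. The count of mitotic genes called lower was 38, and it was 31 to 40 under a pseudocount of 0.1, no filter, a mean of at least 10, voom, the deposited values, library totals, quantile normalization and an adjusted p of 0.01. Requiring also a log2 change of 0.5 or more in size left 20 mitotic genes and 3665 of all genes, 2062 higher and 1603 lower. With 1 library left out, limma called 0 to 31 mitotic genes lower, and 0 to 3531 of all genes, 0 to 1753 higher and 0 to 1780 lower. With voom the mitotic genes called lower were 13 without AMF replicate 1, 15 without AMF replicate 2 and up to 39 without a DMSO library. Over all genes voom called 1380 (667 higher, 713 lower) without AMF replicate 1, 1343 (648 higher, 695 lower) without AMF replicate 2, and at most 6776 (at most 3043 higher and 3733 lower) without a DMSO library. These fits have fewer samples, and without a DMSO library voom set aside each gene's own scatter. The median change of the mitotic genes ran from -0.47 to -0.36 without 1 library, was -0.33 on the deposited log2 values, whose transformation shrinks low counts, and -0.45 without NUSAP1 and PRC1. Changes that turned sign without 1 library all belonged to genes that had not passed. None of the 38 fallen genes could turn, since their AMF and DMSO libraries did not overlap. Over both tools AURKA ran from -0.02 to 0.07, MAD2L1 from -0.06 to 0.09 (-0.04 without AMF replicate 2, -0.05 with limma without DMSO replicate 2), CENPW from -0.03 to 0.18, CDC20 from -0.10 to 0.05 and HMMR from -0.09 to 0.13 (-0.01 without AMF replicate 1). NUSAP1 ran from -0.55 to 0.34 (limma -0.53 to 0.33; voom 0.23 without DMSO replicate 2) and PRC1 from -0.56 to 0.48 (limma from -0.54; 0.27 without AMF replicate 1, voom 0.47 without DMSO replicate 1). CDC20 was at 0.00 with quantile normalization; the cause was not tested. The labels do not say that equal replicate numbers mark a shared culture, and same-numbered libraries did not deviate together (Pearson r = 0.014 across 15845 genes, which are not independent replicates). With the replicate block 40 mitotic genes and 8157 of all genes were called, 4049 higher. Library totals moved the median of all genes to 0.06 and quantile normalization to -0.02, against 0.04. The share of promoters with CHR letters was 73.2% in a window of 150 bases before to 50 after the start. Levels of 9.27 to 49.0 normalized counts limit what can be said of NUSAP1 and PRC1.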
